A study of Lactuca sativa var. capitata with 10 samples.

Results

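Among the 38293 genes counted in lettuce roots, 117 formed the set described here, the expressed root genes that were raised in every pool of chitin-treated plants. A gene belonged to the set when its mean over the 5 control pools was at least 5 CPM (counts per 1000000 counts of the library), when its lowest chitin-treated pool lay above its highest control pool, and when its chitin-treated mean was at least 1.5 times the control mean. These values chose the members, so that levels, ratios and the order of the pools are given as a description and were not tested. Of 119 genes that met the conditions, 2 were left out by the rule, the transcription factor bHLH137 (LSAT_4X83840) and the gibberellin-regulated protein 6 (LSAT_2X90361), which rose from 5.61 to 10.5 and from 101 to 179.9 CPM on average. The PAMP-induced protein A70 was left out as well, but did not meet the conditions.

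The plants were wild-type butterhead lettuce (L. sativa var. capitata 'Alexandria'), and roots of all plants were taken 72 h after seedlings had been moved to fresh potting soil (72 hpt). Control plants grew in potting soil without chitin (PS), chitin-treated plants in potting soil mixed with 2 g crab chitin per L (PS+CH). Each treatment had 5 pools with the roots of 5 plants per pool, and the greenhouse climate followed the weather. Total counts per library lay between 17624520 and 18545790, and the lowest count of any member in any library was 44. For members with few counts or a small spread between pools, counting error is a sizeable part of that spread. In such bulk samples, more cells of a type and more RNA per cell cannot be told apart.

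Chitin is a polymer of fungal cell walls and of crab and insect shells. Plants recognise its fragments with receptors that carry LysM domains, and calcium signals, kinases and transcription factors act downstream. In soil, microbes also degrade chitin and release ammonium, so that an amended soil feeds the root as well. Root growth in turn is governed by auxin, whose repressors of the Aux/IAA family are degraded when the hormone is sensed.

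Names of locus tags came from a primer list for RT-qPCR, which holds 5 of the 117 members. The other 112 are known here by their locus tag alone. Primer targets were picked partly from these libraries, so that the presence of these members in the list is no independent evidence. The primers are shown because they are the only sequences that tie a name to a member. They are written 5′ to 3′ as forward (F) and reverse (R) primer, as the supplement of the study lists them. Capitals mark a stretch of 14 bases that the reverse primer for IAA14 shares with the reverse primer listed for a glutathione S-transferase (GST, LSAT_3X87760), which was not a member.
Patellin-3 (LSAT_6X111521) F: tcacccagaggaccaaaagc
Patellin-3 (LSAT_6X111521) R: agaccgccgtattgaactgg
Calmodulin-like protein 30 (LSAT_2X84220) F: aggtgaccaaggcgtttcaa
Calmodulin-like protein 30 (LSAT_2X84220) R: cacctgtaacagctcctccg
ERF062 (LSAT_6X60300) F: tagaggcgtaaggcaaaggc
ERF062 (LSAT_6X60300) R: taaaaacgcgcaatcgcctc
IAA14 (LSAT_3X125741) F: cggctttttgagtcaagggc
IAA14 (LSAT_3X125741) R: GCGCTTCGACTTCTagccat
SAUR78 (LSAT_8X85101) F: tgcagcagaacttgacccat
SAUR78 (LSAT_8X85101) R: acaacctcgcactcaatcgt
GST (LSAT_3X87760) R: agtgatGCGCTTCGACTTCT

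Among the named members, 2 belong to the auxin response. IAA14 (LSAT_3X125741) is an Aux/IAA repressor, known in Arabidopsis for holding back the start of lateral roots. It had 14.02, 15.3, 12.1, 17.3 and 13.9 CPM in PS replicates 1 to 5 and 25.7, 27.3, 30.6, 17.8 and 22.8 CPM in PS+CH replicates 1 to 5. On average it rose from 14.5 ± 1.94 CPM (SD, n = 5) to 24.8 ± 4.85 CPM (SD, n = 5), a ratio of 1.71. The treatments were separated only by a narrow margin, since PS+CH replicate 4 was 1.03 times PS replicate 4, its highest control. SAUR78 (LSAT_8X85101) belongs to the small auxin-up RNAs, short proteins whose genes are often switched on quickly by auxin. It had 10.7, 10.02, 9.35, 10.4 and 13.2 CPM in the PS pools and 20.01, 20.9, 16.7, 23.3 and 15.1 CPM in the PS+CH pools, a ratio of means of 1.79. Here PS+CH replicate 4, the lowest chitin-treated pool for IAA14, was the highest.

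ERF062 (LSAT_6X60300), listed as an ethylene-responsive transcription factor, belongs by its name to the AP2/ERF family and had the largest ratio of the named members. It had 20.2, 12.1, 16.04, 9.59 and 19.5 CPM in PS and 35.4, 25.8, 25.02, 38.3 and 30.0 CPM in PS+CH. The mean rose 1.996 times, from 15.5 ± 4.62 CPM (SD, n = 5) to 30.9 ± 5.83 CPM (SD, n = 5). The PS pools differed among themselves more than for any other named member, with a coefficient of variation (CV, SD over mean) of 29.8%.

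Calmodulin-like protein 30 (LSAT_2X84220) belongs to the calmodulin-like proteins, which bind calcium and pass calcium signals on. It had 31.4, 28.5, 25.6, 34.5 and 32.9 CPM in PS and 54.4, 57.7, 46.4, 44.5 and 45.1 CPM in PS+CH. All PS+CH pools lay at least 1.29 times above the highest PS pool, the widest margin among the named members, with a ratio of means of 1.62. Patellin-3 (LSAT_6X111521) is one of the patellins, which carry a Sec14 domain that binds membrane lipids and are known from Arabidopsis for a role in membrane traffic. It was the most abundant named member, with 633, 462, 433, 465 and 469 CPM in PS and 854, 779, 716, 738 and 657 CPM in PS+CH. PS replicate 1 stood above the other PS pools and lay just under the lowest PS+CH pool, and the ratio of 1.52 was close to the limit of the rule. It fell below 1.5 when PS replicate 2 (1.497), PS replicate 3 (1.48), PS replicate 4 (1.49992) or PS+CH replicate 1 (1.47) was left out. The other 4 named members met the rule with each of the 10 pools left out in turn. Leaving out a pool cannot make separated pools overlap, so that only the ratio or the level in PS could fail.

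**Figure D1:**
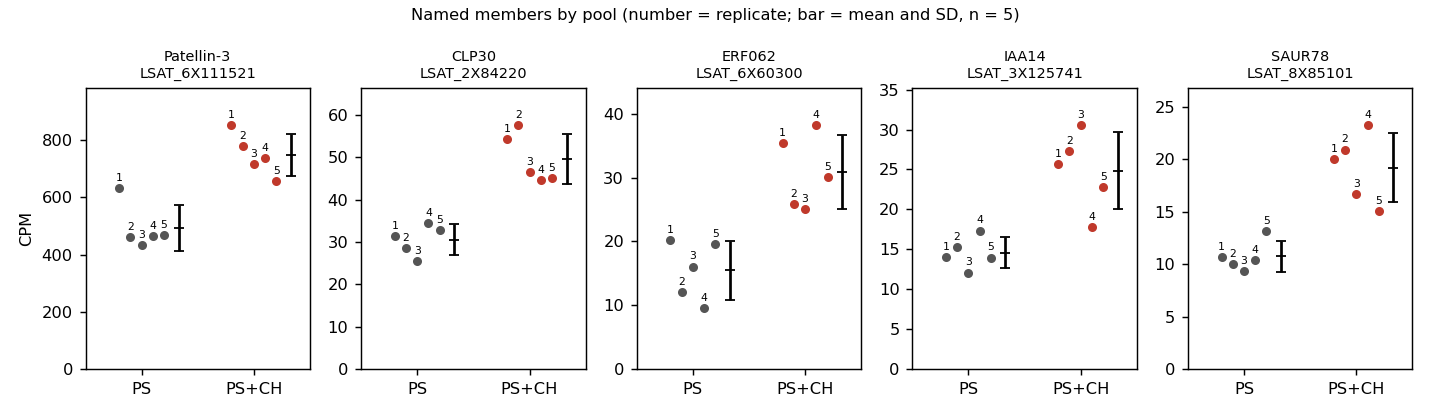
CPM of the 5 named members in each pool (vertical axis from 0), with PS pools in grey and PS+CH pools in red. Numbers beside the points are replicate numbers, and black bars give the mean and SD of 5 pools. All red points lie above all grey points of their panel, by the widest margin for CLP30 (calmodulin-like protein 30, 1.29 times) and the narrowest for IAA14 (1.03 times).

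Of the 31 locus tags in the primer list, 16 had at least 5 CPM in PS. Some of these were lower in PS+CH, such as beta-glucosidase 18 (ratio 0.27), or nearly equal, such as Flagellin-sensitive 2a (1.04). Several other locus tags that were not members missed a single condition of the rule. The other gene named IAA14 (LSAT_5X66981) had 81.6, 108, 63.7, 101 and 92.3 CPM in PS and 123, 145, 138, 122 and 131 CPM in PS+CH without overlap, but its ratio was 1.48. Its level was several times that of the member IAA14, and the deviations of both genes from their treatment means had a correlation of 0.63 over the 10 pools. The sugar transporter ERD6-like 6 (LSAT_5X27561), of a family that moves monosaccharides across the vacuole membrane, rose from 21.5 to 32.0 CPM without overlap, a ratio of 1.49. Gibberellin 2-beta-dioxygenase 1 (LSAT_9X101040), of an enzyme family that inactivates gibberellins, rose from 4.04 to 7.19 CPM without overlap and missed the level in PS. Aquaporin TIP1-1 (LSAT_6X43221), a water channel of the vacuole membrane, reached a ratio of 1.749, but PS+CH replicate 3 with 8.85 CPM lay under PS replicate 1 with 9.96 CPM.

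The most abundant members had no name. LSAT_3X7300 led with 725, 686, 417, 598 and 546 CPM in PS and 1001, 1054, 996, 951 and 879.7 CPM in PS+CH. PS replicate 3 was far below the other PS pools, while the PS+CH pools were close together (CV 20.5% in PS and 6.68% in PS+CH). LSAT_6X92001 followed with 648, 408, 662, 545 and 676 CPM in PS and 863, 1141, 789, 935 and 743 CPM in PS+CH. Here PS replicate 2 was the low control pool and PS replicate 3 was not. LSAT_6X101900 had the clearest separation among the 10 most abundant members, with 278, 236, 215, 203 and 244 CPM in PS against 460.0, 597, 523, 428 and 420.0 CPM in PS+CH. Its ratio was 2.06, and its lowest PS+CH pool was 1.51 times its highest PS pool. The other 7, with Patellin-3 among them, had PS means from 208 CPM (LSAT_3X65021) to 495 CPM (LSAT_2X83561) and ratios from 1.502 to 1.74. Together these 10 genes made up 45.9% of the CPM of all members in PS.

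**Figure D2:**
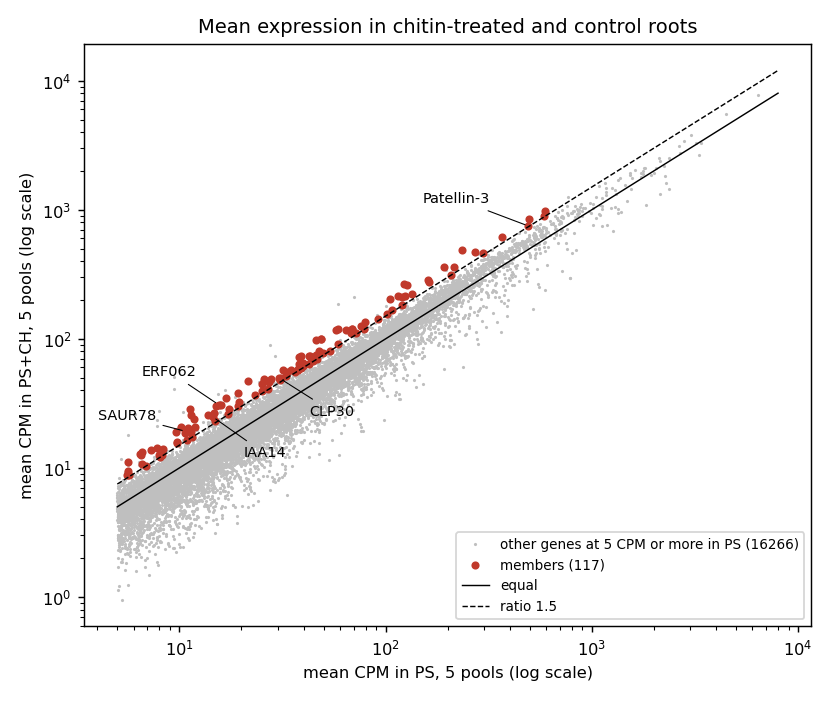
Mean CPM of 5 PS pools (horizontal) against mean CPM of 5 PS+CH pools (vertical), both on log scales, for the 117 members (red) and the other genes with at least 5 CPM in PS (grey). The solid line marks equal means and the dashed line a ratio of 1.5. Members lie on or above the dashed line from 5.6002 to 594 CPM in PS, and the 5 named members are labelled.

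By size of the increase, LSAT_6X14640 came first, with 12.05, 14.3, 5.04, 12.7 and 12.1 CPM in PS and 31.0, 27.3, 29.5, 29.0 and 25.7 CPM in PS+CH. The ratio of 2.54 was 2.23 without PS replicate 3, and even the lowest PS+CH pool was 1.80 times the highest PS pool, the widest margin of all 117 members. The next were LSAT_7X83821 (ratio 2.25) and LSAT_7X83841 (ratio 2.21), which follow each other directly in the order of locus tags. LSAT_7X83821 had 10.6, 17.4, 6.97, 10.5 and 11.5 CPM in PS and 25.9, 31.3, 30.0, 19.7 and 21.5 CPM in PS+CH. LSAT_7X83841 had 20.6, 30.8, 15.6, 18.3 and 21.7 CPM in PS and 46.2, 52.9, 51.3, 41.1 and 45.2 CPM in PS+CH. Both were highest in replicate 2 of each treatment and lowest in PS replicate 3 and PS+CH replicate 4, and their deviations from the treatment means had a correlation of 0.96 over the 10 pools. Whether these neighbours are copies that share reads is not stated in the sources used here.

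LSAT_3X1560 (ratio 2.15), LSAT_6X21140 (2.12) and LSAT_2X84540 (2.04) varied more among the chitin-treated pools. LSAT_6X21140 had 89.2, 153, 102, 70.2 and 71.8 CPM in PS+CH against 36.1, 62.0, 45.1, 39.9 and 46.1 CPM in PS. LSAT_2X84540 had 89.4, 149.8, 101, 86.2 and 72.7 CPM in PS+CH against 46.1, 55.3, 45.9, 40.2 and 56.8 CPM in PS. In these 3 genes PS+CH replicate 2 was the highest pool. LSAT_1X105120 (ratio 2.06) varied among the control pools instead, with 126, 185, 50.7, 180.2 and 94.1 CPM in PS and 242, 304, 273, 233 and 259 CPM in PS+CH. LSAT_2X133560 (2.09), LSAT_9X13940 (2.05) and LSAT_6X101900 (2.06) completed the 10 largest ratios.

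Most members rose by less than these. The ratio had a median of 1.68 and quartiles of 1.56 and 1.87, and was at least 2 for 15 of the 117. Over all 16383 genes with at least 5 CPM in PS, the median ratio was 0.951. The lowest PS+CH pool was between 1.003 and 1.80 times the highest PS pool, with a median of 1.13, and was at least 1.5 times as high for 2 members. The PS mean had a median of 33.4 CPM among members and 26.0 CPM among the 16383 genes. The share of genes that were members showed no steady order with level. It was 0.602% from 5 to 10 CPM, 0.541% from 10 to 25, 0.970% from 25 to 50, 0.504% from 50 to 100, 1.06% from 100 to 250 and 1.16% above 250 CPM in PS.

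All PS+CH pools lay above all PS pools for 664 of the 16383 genes (4.05%), and 545 of these stayed under a ratio of 1.5. The whole rule was met by 0.726% of the genes. A ratio of at least 1.5, with or without overlap, was reached by 215 genes (1.31%), 96 of them with overlapping pools. In the other direction, all PS+CH pools lay below all PS pools for 2011 genes (12.3%), and the same rule turned around was met by 952 genes (5.81%). Values close to the limits differed little. For the ratio, LSAT_3X65021 and LSAT_8X32820 were just inside (1.5021 and 1.5022) and LSAT_5X8141 and LSAT_5X85721 just outside (1.4997 and 1.4989). For the order of the pools, LSAT_6X82280 and LSAT_2X83561 had their lowest PS+CH pool just above their highest PS pool (1.003 and 1.005 times), while LSAT_8X137141 and LSAT_4X155461 missed it (0.997 and 0.996 times). For the level, LSAT_1X97920 and LSAT_5X13200 had PS means of 5.6002 and 5.64 CPM, and LSAT_6X35701 and LSAT_3X100601 fell short with 4.84 and 4.81 CPM.

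Summed over the 117 members, expression was 9189, 9138, 6378, 8177 and 8133 CPM in PS replicates 1 to 5 and 14299, 15704, 13996.5, 13093 and 12337.5 CPM in PS+CH replicates 1 to 5. The members thus took 0.638 to 0.919% of the counts of a PS library and 1.23 to 1.57% of a PS+CH library, a ratio of means of 1.69. PS replicate 3 stood below the other control pools. It was the lowest PS pool for 90 of the 117 members (76.9%), while it was lowest for 25.4% of the 16383 genes. The PS mean that the rule used includes this pool. Without this pool the median ratio of the members was 1.57, and 82 of the 117 still had a ratio of at least 1.5. The lowest ratio was then 1.34. In PS+CH, replicate 2 was the highest pool for 51 members and replicate 1 for 38, and replicate 5 was the lowest for 45.

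**Figure D3:**
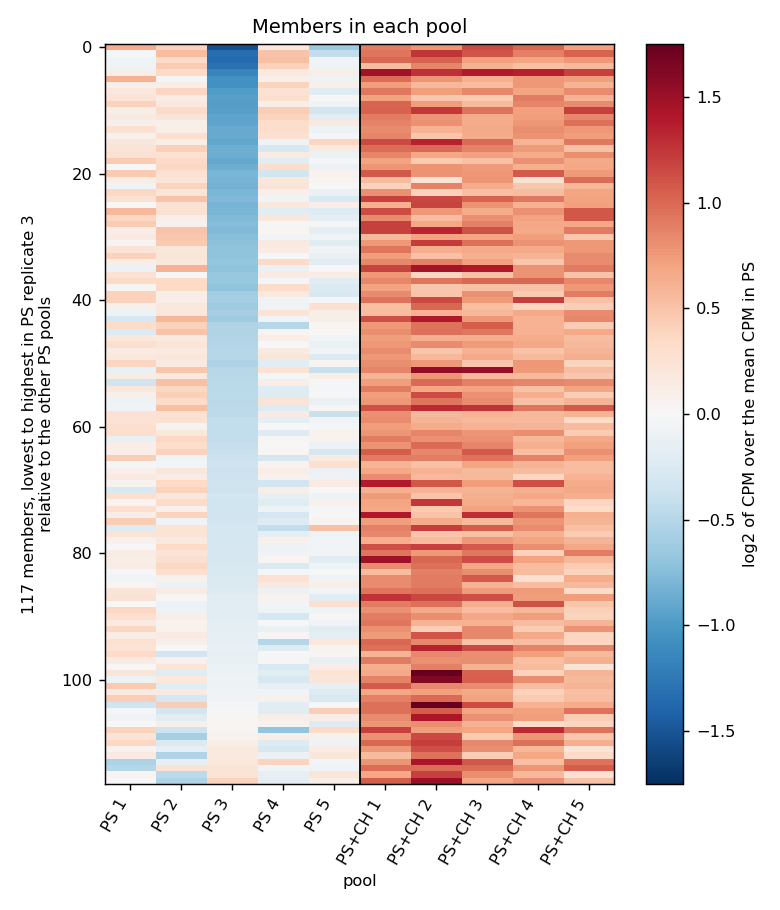
Each row is a member and each column a pool, with the colour giving the log2 of CPM over the mean CPM in PS. Rows are sorted from the lowest to the highest value of PS replicate 3 relative to the other PS pools. PS replicate 3 is blue in most rows and above the mean of the other PS pools in 11 rows at the bottom, while all PS+CH pools are red.

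The PS+CH pools differed less among themselves than the PS pools did. The CV of a member had a median of 21.8% in PS and 12.5% in PS+CH, and was lower in PS+CH for 90 of the 117. Over the 16383 genes these medians were 13.4% and 10.1%, and 68.1% of genes had the lower CV in PS+CH, as did 76.9% of the members and 78.5% of the 952 genes that met the rule in the other direction. Without PS replicate 3 the median CV in PS was 15.8% for the members and 10.6% for the 16383 genes, and 76 members still had the lower CV in PS+CH. LSAT_8X32820 shows the pattern, with 12.3, 13.3, 8.90, 12.5 and 10.7 CPM in PS and 18.4, 17.58, 17.0, 16.9 and 16.8 CPM in PS+CH. Its PS+CH pools had only 300 to 336 counts. At such counts, counting error alone is expected to be at least as large as their small spread (CV 3.79%). LSAT_5X13200 shows the opposite pattern, with 6.53, 4.87, 5.27, 4.91 and 6.64 CPM in PS and 8.91, 19.0, 11.5, 7.49 and 8.54 CPM in PS+CH, where replicate 2 stood out.

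Members tended to deviate together within the treatments. After the mean of each treatment was subtracted from log2(CPM + 0.5), the correlation of 2 members over the 10 pools had a median of 0.49, against 0.01 for 2 of the 16383 genes. These pools share depth, RNA quality and composition, so that the values are a description. The rule also favours genes that are low in a control pool, since such a pool lowers the PS mean. PS replicate 3 was the lowest control pool for 76.9% of the members. The same rule turned around favours genes that are high in a control pool. How much of the correlation comes from this choice was not tested. Without PS replicate 3 the median was 0.24 among members and 0.01 among all. The 952 genes that met the rule in the other direction had a median of 0.56, and PS replicate 3 was their highest control pool in 89.7%.

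**Figure D4:**
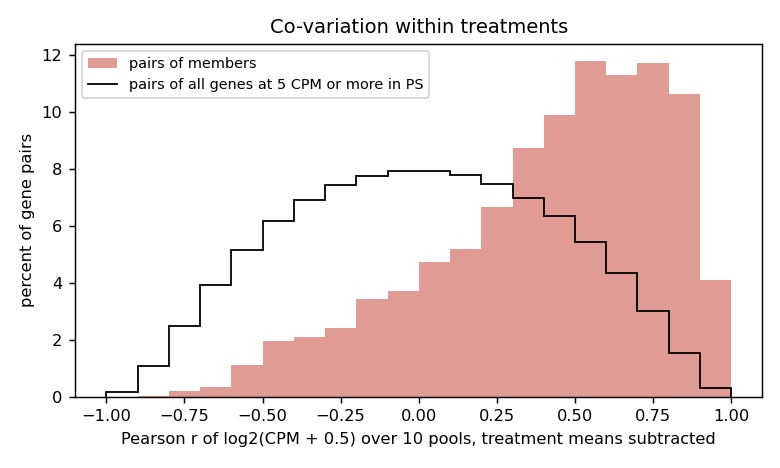
Percent of gene pairs (vertical) by Pearson correlation (horizontal) of log2(CPM + 0.5) over 10 pools after subtraction of treatment means, for pairs of members (red area) and pairs of all 16383 genes with at least 5 CPM in PS (black line). Pairs of members are shifted to positive values, with a median of 0.49 against 0.01.

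A small group behaved differently among the control pools. In 11 of the 117 members PS replicate 3 lay above the mean of the other PS pools, as it did for 58.4% of the 16383 genes. ERF062 was one of them, together with the abundant LSAT_6X92001 and LSAT_4X74180. LSAT_4X74180 had 380.1, 266, 431, 333 and 423 CPM in PS and 585, 839.8, 642, 541 and 443 CPM in PS+CH. The low control pool was replicate 2, and PS+CH replicate 2 was the highest pool of all. The 11 genes had a median ratio of 1.84, and each had a ratio of at least 1.52 without PS replicate 3. Leaving out a pool above the mean of the others can only raise the ratio, so that this follows from their choice. The ratio of LSAT_4X113481 was 1.94, with 4.62, 7.73, 7.65, 6.30 and 6.26 CPM in PS and 12.9, 12.8, 12.8, 11.2 and 13.5 CPM in PS+CH. The 11 were singled out after their values were seen.

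By the chromosome number in the locus tag, chromosome 8 held the most members, 24 of 117 (20.5%), while it held 13.0% of the 16383 genes with at least 5 CPM in PS. Chromosome 9 held 17 members (14.5%, against 10.4% of the genes) and chromosome 5 held 9 (7.69%, against 13.97%). No member had a tag beginning with 0, where 320 of the 16383 genes were. Runs of members, with at most 2 other genes between neighbours in the order of the tags, were found 7 times and held 16 members.

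The longest run had 4 members on chromosome 8, LSAT_8X71660, LSAT_8X71700, LSAT_8X71800 and LSAT_8X71860, with 5 other genes among them. LSAT_8X71660 had 34.7, 44.7, 19.4, 43.4 and 32.4 CPM in PS and 59.5, 60.2, 58.4, 53.6 and 55.7 CPM in PS+CH. LSAT_8X71700 had 106, 73.2, 139, 93.3 and 113 CPM in PS and 218, 295, 170.0, 182 and 150.3 CPM in PS+CH. These neighbours were thus opposite in the control pools, LSAT_8X71660 being lowest in PS replicate 3 and LSAT_8X71700 highest there. LSAT_8X71800 (ratio 2.04) and LSAT_8X71860 (ratio 1.71) went with LSAT_8X71660, with correlations within treatments of 0.70 and 0.74 over the 10 pools, while LSAT_8X71700 had -0.53 with it.

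**Figure D5:**
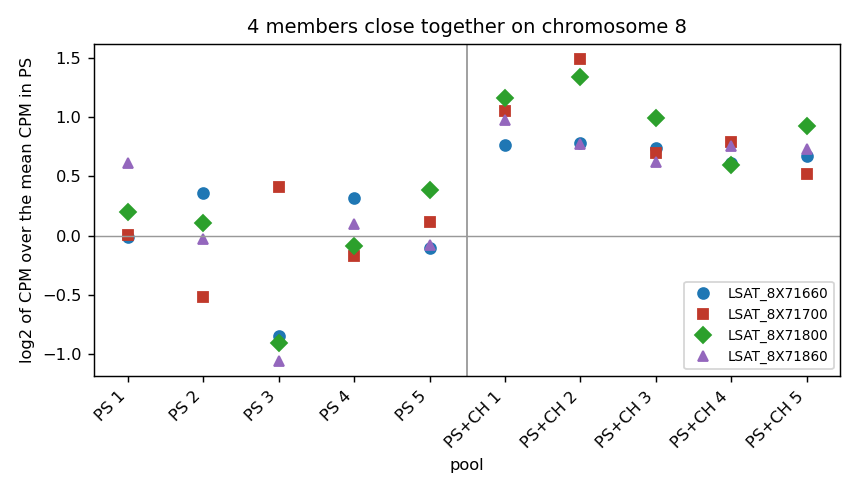
Log2 of CPM over the mean CPM in PS (vertical) in each pool (horizontal) for the 4 members close together on chromosome 8, with PS pools left and PS+CH pools right of the grey line. LSAT_8X71700 (red squares) is highest in PS replicate 3 among the PS pools, where the other 3 genes are lowest. In PS+CH all 4 lie above 0 in all pools.

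LSAT_9X97681 and LSAT_9X97701 were also direct neighbours, and both were among the 11 members that were not low in PS replicate 3. LSAT_9X97681 had 31.9, 18.2, 28.5, 29.7 and 28.4 CPM in PS and 47.6, 60.7, 37.4, 46.6 and 37.8 CPM in PS+CH. LSAT_9X97701 had 20.5, 13.4, 17.1, 13.5 and 14.9 CPM in PS and 31.8, 36.8, 28.3, 31.0 and 24.6 CPM in PS+CH. Both were lowest in PS replicate 2 and highest in PS+CH replicate 2, with a correlation within treatments of 0.74. LSAT_4X74180 and its near neighbour LSAT_4X74100 shared that pattern in PS+CH (correlation 0.91).

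The tissue was checked with 7 genes of photosynthesis as leaf markers, which the study picked from these libraries as higher in PS+CH, so that their difference was not tested here. None of the 7 was a member and none reached 5 CPM in PS on average. Summed, they had 3.83, 4.09, 3.00, 13.0 and 2.31 CPM in PS and 9.73, 47.9, 12.8, 2.75 and 16.1 CPM in PS+CH, so that the treatments overlapped and PS+CH replicate 2 was far above the rest. The means of log2 differed by 1.51. PS+CH replicate 2 was also the pool with the highest sum of the members. PS+CH replicate 5, with the next highest marker sum, had the lowest sum of the members in PS+CH (12337.5 CPM). PS replicate 4, the highest PS pool for the markers, had the median sum of the members in PS (8177 CPM). The part of leaf material in the members' levels was not tested. Root markers were not checked here.

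In a fit over the whole table with edgeR's quasi-likelihood test, 1656 of 21936 genes (7.55%) were higher expressed in PS+CH at an adjusted p-value under 0.05, and 116 of the 117 members were among them. Since the rule used the same pools, nothing is read from this count. CPM was taken relative to library totals, by which the median log2 ratio of the 16383 genes was -0.07. After TMM scaling it was 0.02 (a shift of 0.0954), and the rule was met by 198 genes, all 117 members among them. The TMM factors were 1.01 to 1.09 for the control and 0.945 to 0.985 for the chitin-treated libraries. The highest was that of PS replicate 3 (1.09), followed by PS replicate 2 (1.03).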

How the data were processed

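Strand-specific mRNA libraries of roots were sequenced on a DNBSEQ platform. The authors checked reads with FastQC 0.11.9, aligned them with STAR 2.7.10 to version 7 of the 'Salinas' genome and counted them per gene with featureCounts 2.0.1. The deposited values are raw read counts per locus tag. How reads that match several genes were counted is not given in the sources used here. All 10 columns were used, and treatments and replicate numbers were taken from sample titles.

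CPM were counts over library totals times 1000000. The members and lists were chosen with earlier results of these data known. edgeR 4.0.16 (TMM, filterByExpr with a minimum count of 10, quasi-likelihood test, Benjamini-Hochberg adjustment) was run in R 4.3.3, with DESeq2 1.42.0 and limma 3.58.1 as alternatives. The edgeR fit was also run on simulated counts, with larger changes than those of the members, so that changes of the members' size were not covered. DESeq2 and limma were not run on simulated counts. Genes were named by rule: members in the primer list, the 10 with the highest PS mean, the 10 with the largest ratio, the 2 genes nearest each limit on either side, and the 3 longest runs of neighbouring tags. Lists by product name could not be built, since no locus tag of the counts was found in the gene table at hand (version 11 of the assembly). Other genes were named after their values were seen. The labels call the pools biological replicates of randomly selected plants.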

Additional observations from a re-analysis of the deposited data

Results flagged for a closer look

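Among the named genes and sums, 82 groups of 5 pools were examined for a pool far from the other 4 (Dixon's criterion), and 6 had one. For independent groups chance gives about 1 in 20. These genes were chosen from the same pools and partly vary together, so that the 6 cannot be set against that rate. Patellin-3 (LSAT_6X111521) had 633 CPM in PS replicate 1, with the next PS pool at 469 CPM. LSAT_6X14640 had 5.04 CPM in PS replicate 3, with the next at 12.05 CPM. LSAT_9X97681 had 18.2 CPM in PS replicate 2, with the next at 28.4 CPM. PS+CH replicate 2 stood apart for LSAT_6X35701 (10.5 CPM, next 7.33 CPM) and LSAT_5X8141 (48.1 CPM, next 39.6 CPM), which both just missed the rule. The leaf markers summed to 13.0 CPM in PS replicate 4, with the next PS pool at 4.09 CPM.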

How the results depend on the processing

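The number of members depended on the settings. TMM-scaled library sizes gave 198 genes and DESeq2 size factors 194, a lower limit for the ratio gave 365 and a limit of 2 gave 15, and overlap of 1 pair of pools gave 180; a PS mean of at least 3 or 10 CPM gave 132 and 99. With each pool left out in turn, between 85 (without PS replicate 3) and 194 genes (without PS replicate 1) met the rule, with 177 without PS replicate 2. Of the 117 members, 76 were found in all 10 of these runs, in which the order of the pools of a member could not fail. The ratio of the summed CPM stayed between 1.604 and 1.80 under all alternatives tried for it. The ratio of the single named genes moved by more than the spread between the PS+CH pools in 27 values and by less in 441. None changed direction, but these genes were chosen for pools that overlapped little or not at all, which largely fixed this in advance. The median correlation within treatments lay between 0.24 (without PS replicate 3) and 0.55 with pools left out (chosen after seeing the data). The leaf marker difference lay between 1.01 and 2.05 with pools left out (highest without PS+CH replicate 4), and is given without a test.

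edgeR called 99 to 117 members, and 2.11 to 6.75% of all genes tested as higher in PS+CH, with pools left out, fewest members without PS+CH replicate 1. Pools of both treatments carry numbers 1 to 5 in the titles. Over all genes tested, the correlation of deviations of same-numbered pools was 0.48, 0.45 and 0.35 for numbers 1 to 3. It was near 0 (-0.01 and 0.01) for 4 and 5. In all, 6 of 10 libraries correlated best with their own number. By the code numbers of the descriptions, which differ from the titles, the correlation over all genes tested ran from -0.40 to 0.02. For the members alone it ran from -0.20 to 0.36 by title number and from -0.20 to 0.40 by code number. No pairs were taken in the main fit, and whether the title numbers mark pairs was not tested. With the title number as a replicate block, 117 members and 12.9% of all genes (2836) were called, against 7.55% without it. With the code number of the descriptions as a block over 8 libraries, 0 were called at an adjusted p-value under 0.05 in edgeR, while 117 had an unadjusted p-value under 0.05, and 0 of all 22064 genes were called higher; the cause was not tested. The other alternatives called 114 to 117 members, DESeq2 117 (11.4% of all genes, 2507), limma-voom 116 (7.87%) and edgeR with library totals, the scaling of the rule, 114 (3.73%, 819 genes against 1656). A count of 3 corresponds to 0.162 to 0.170 CPM.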

Other observations

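The primer list of the study holds 76 primers. Among 2804 pairs of primers for different targets, the longest stretch in common had 14 bases, the second longest 8 and the median 4. The longest is the one printed above, between the reverse primers listed for IAA14 (LSAT_3X125741) and for the glutathione S-transferase (LSAT_3X87760). The former had 14.5 CPM in PS and 24.8 CPM in PS+CH, the latter 0.09 and 2.45 CPM. Which of the genes holds the stretch was not tested.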
